A study of Mus musculus with 32 samples.

Results

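The Vh558 amplicon reads the distal part of the mouse heavy chain repertoire: productive V-D-J joins of IGHV1 genes, the large VH family once called J558, amplified from genomic DNA of bone marrow pro-B cells with a Vh558 primer and a JH4 primer. Its members were the clonotypes of the authors' series table in sequencing batches 185891a, 186823a and 187183a whose library matched a deposited sample. There were 602 of 908 mapped clonotypes, in 13 libraries of 13 samples from 9 mice. All 602 best V hits were IGHV1 genes, as the primer's label says. A clonotype is a CDR3 nucleotide sequence with its V, D and J genes, where CDR3 is the loop that spans the joints.

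The groups were untreated mice of 8 weeks, labelled WT (4 mice, 6 libraries, 476 clonotypes) and KO, the Setd2 knockout (5 mice, 7 libraries, 126 clonotypes). The sources used here name no allele, Cre line, strain or sex. Cells were sorted as B220+ CD43+ IgM- CD25-, and neither these markers nor Setd2 can be checked in amplified heavy chain DNA. A 500 bp gel fragment was cut and read in 150 bp reads.

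SETD2 is the methyltransferase that adds the third methyl group to histone H3 at lysine 36 along gene bodies. In pro-B cells RAG cuts beside V, D and J segments, exonucleases trim the opened ends, hairpin opening can leave short palindromic P bases, and TdT adds N bases without a template. D joins J first and V joins later, and distal IGHV1 genes are known to need contraction of the locus to reach the DJ join. Each D can be read in 3 frames, and mouse repertoires are known to favour the frame that codes for tyrosine and glycine.

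The libraries held 53277 to 121353 sequenced reads, of which 612 to 9276 belonged to kept productive clonotypes. Kept reads lay between 612 and 6927 in WT libraries (median 6305.5) and between 1000 and 9276 in KO libraries (median 8651). KO mice 1534 and 1500 had 1000 and 1543. These are PCR reads and do not count the template molecules of a library. WT mice 1418 and 1536 and KO mice 1421 and 1423 had 2 libraries each, whose values were averaged. In pooled counts a clonotype found in both libraries counts once in each, so the 602 clonotypes hold 563 distinct CDR3 sequences. Batch 185891a held 3 WT and 3 KO mice, 187183a held 2 and 2, and 186823a held 1 and 2. A second run of the sample of mouse 1534, with 3 clonotypes in the table, was left out so that each sample stood for 1 library. Unless stated, differences are KO minus WT, tested over mice with a two-sided exact permutation test whose smallest p is 0.00794, and adjusted over the 14 genotype tests by Benjamini-Hochberg. None of the 14 had an unadjusted p under 0.05, and the lowest adjusted p was 0.533.

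The D genes that carry the reading frame results are shown first. Each was rebuilt as the most common base at every germline position over the clonotypes, with at least 7 clonotypes behind every base, and capitals mark the tyrosine codons of the frame that begins at the third base. IGHD1-1 is the DFL16 gene and the IGHD2 genes form the DSP2 family.
IGHD1-1: ttTATTACTACggtagtagcTAC
IGHD2-3: tcTATgatggtTACTAC
IGHD2-4: tcTACTATgatTACgac
IGHD2-6: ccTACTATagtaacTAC
IGHD2-7: tcTACTATggtTACgac
IGHD2-8: tcTACTATggtaacTAC

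Read from the third base, these genes hold 3 or 4 tyrosine codons and no stop codon. From the first base they hold no tyrosine and no stop codon, and the mean Kyte-Doolittle hydropathy of the encoded residues is positive, from 0.78 to 2.30, against -1.03 to -2.18 in the tyrosine-rich frame. From the second base 5 of the 6 genes hold 1 or 2 stop codons, and IGHD2-7 holds none. Mean hydropathy of the residues of that frame is positive too, from 1.2 to 3.8. In every IGHD2 gene it is above that of the first-base frame.

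Clonotypes that took more than 25% of the productive reads in their library are shown next, because they set the shape of the small libraries. Capitals mark the bases aligned to D.
WT mouse 1485, IGHV1-72 IGHD1-1 IGHJ4: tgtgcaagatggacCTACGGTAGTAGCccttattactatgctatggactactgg
KO mouse 1421, IGHV1-72 IGHD4-1 IGHJ4: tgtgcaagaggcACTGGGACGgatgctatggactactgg
KO mouse 1421, IGHV1-55 IGHD2-6 IGHJ4: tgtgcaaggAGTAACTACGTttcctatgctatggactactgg
KO mouse 1423, IGHV1-22 IGHD2-8 IGHJ4: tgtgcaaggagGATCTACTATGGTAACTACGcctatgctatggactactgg
KO mouse 1423, IGHV1-61 IGHD1-1 IGHJ4: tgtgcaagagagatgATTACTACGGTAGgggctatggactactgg
KO mouse 1464, IGHV1-55 IGHD2-3 IGHJ4: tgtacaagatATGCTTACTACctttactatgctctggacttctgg
KO mouse 1500, IGHV1-55 without D IGHJ4: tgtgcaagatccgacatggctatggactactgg
KO mouse 1500, IGHV1-19 IGHD2-4 IGHJ4: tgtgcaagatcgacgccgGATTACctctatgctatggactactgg
KO mouse 1534, IGHV1-72 without D IGHJ4: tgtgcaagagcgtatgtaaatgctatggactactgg

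WT mouse 1485 gave 1 such clonotype, with 70.5% of its 6488 reads (95% Wilson interval 69.3% to 71.6%, counting error only). No library of the other WT mice held one, and their largest clonotypes took 4.2% to 22.1%. Every KO mouse held at least 1. The IGHV1-72 join without a D in mouse 1534 took 88.5% of 1000 reads. In the clone list of the second run of that sample it took 3232 of 3362 in-frame reads (96.1%). In mouse 1500, the IGHV1-55 join without D took 45.04% and the IGHV1-19 join 35.3% of 1543 reads. The dominant clonotypes were not of a single gene: they used IGHV1-72, IGHV1-55, IGHV1-19, IGHV1-22 and IGHV1-61, and all were joined to IGHJ4.

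**Figure D1:**
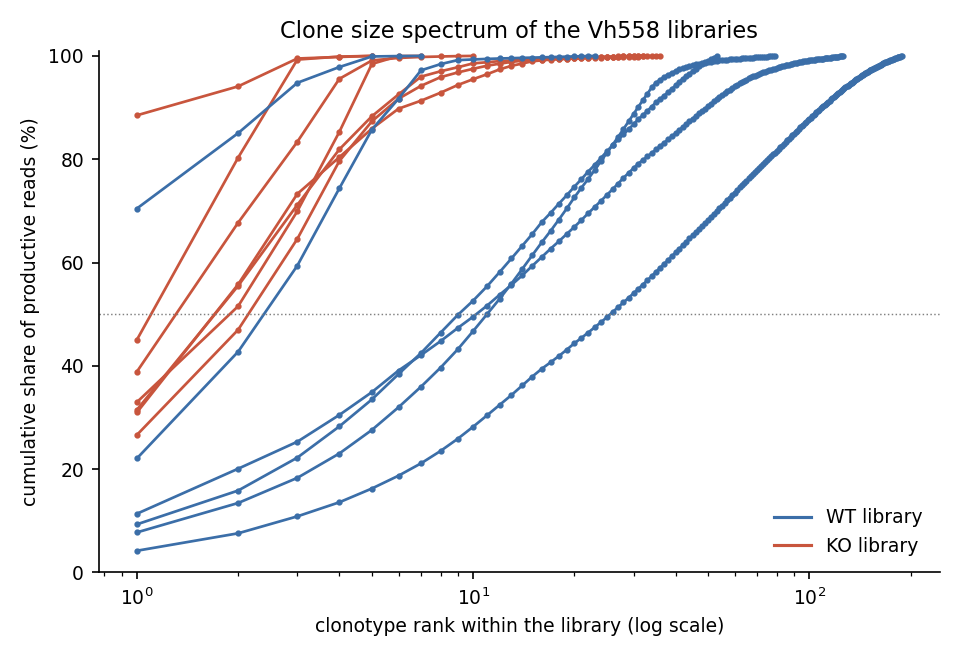
Cumulative share of productive reads (y axis, %) against clonotype rank (x axis, log scale), with 1 line per library, WT in blue and KO in red. All 7 KO libraries passed 85% within their 5 largest clonotypes, as did WT mice 1432 and 1485, whereas the 4 libraries of WT mice 1418 and 1536 held 16.2% to 34.9% there.

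The clone size spectrum differed widely between mice. The 5 largest clonotypes held 31.2% of reads in WT mouse 1418, 85.7% in 1432, 99.9% in 1485 and 24.9% in 1536. They held 98.8% in KO mouse 1421, 86.6% in 1423, 88.3% in 1464, and 100% in 1500 and 1534. The KO mice were uniformly high, and the WT mice split into a low pair and a high pair. WT mice averaged 60.4% (SD 37.9, n = 4) and KO mice 94.7% (SD 6.68, n = 5). KO exceeded WT by 34.3 points, with a 95% interval from -0.0994 to 71.3 (exact p = 0.0556, adjusted p = 0.533). Libraries with only a handful of clonotypes must reach a high value: mice 1500, 1534 and 1485 had 5, 5 and 7 clonotypes. The libraries of KO mouse 1421 were also small, with 10 and 7, so the high KO values cannot be told apart from small library size there.

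Counted the other way, 50% of the reads lay in a mean of 2 clonotypes in KO mouse 1421, 2.5 in 1423, 2 in 1464, 2 in 1500 and 1 in 1534. It took 11.5 clonotypes in WT mouse 1418, 3 in 1432, 1 in 1485 and 18 in 1536. On the log2 scale the difference was -1.42 (95% interval -3.27 to 0.55, exact p = 0.167). WT mouse 1485 had the highest WT share in the 5 largest and the lowest WT number, so leaving it out must widen both differences. Without it they were 47.5 points and -2.18 in log2 number, each with exact p = 0.0179 before adjustment, the smallest that 3 mice against 5 allow. For each value this was the only 1 of 9 sets, each without a different mouse, with p under 0.05. Within batch 185891a the 5 largest differed by 23.1 points (exact p = 0.2, smallest possible 0.1), and within 187183a by 66.6 points, where 2 mice against 2 allow no p below 0.333. Clonotypes under 10 reads made up 47.2% ± 14.5 of WT and 42.0% ± 13.2 of KO clonotypes (exact p = 0.587).

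Repeat libraries of a mouse showed how much of a repertoire a single library caught. In WT mouse 1418 the libraries of 79 and 126 clonotypes shared 20, which held 36.6% and 32.3% of their reads. In WT mouse 1536, 7 were shared between 53 and 188, holding 30.6% and 9.69% of reads. In KO mouse 1423, 11 were shared between 36 and 31, holding 22.1% and 42.6%. KO mouse 1421 shared 1 clonotype between libraries of 10 and 7, the IGHV1-72 IGHD4-1 join shown above, with 38.9% and 33.0% of reads.

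**Figure D2:**
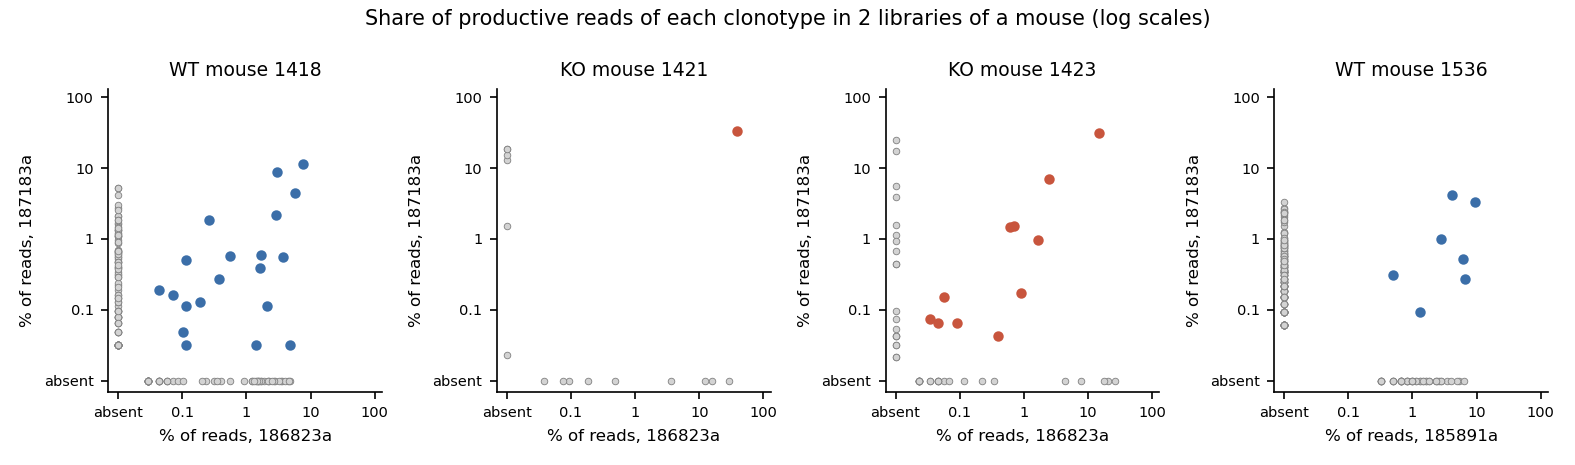
Share of productive reads of each clonotype in the 2 libraries of a mouse (both axes in %, log scales), with shared clonotypes coloured (WT blue, KO red) and those found in a single library grey on the line marked absent. Shared clonotypes numbered 20 in mouse 1418, 1 in 1421, 11 in 1423 and 7 in 1536.

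Sharing was not limited by size. Mouse 1423 held an IGHV1-22 IGHD2-8 clonotype of 2303 reads (26.6%) in batch 186823a and an IGHV1-72 join without D of 2300 reads (24.8%) in 187183a, and each was missing from the other library. The table starts at 2 reads, so absence from it can still mean 1 read. Neither had a single read in the other library's own clone list, a separate file that starts at 1 read and holds 5884 and 4886 reads. A count of 0 there allows a share of up to 0.0510% and 0.0614%, from counting error alone. Mouse 1421 did the same with an IGHV1-55 IGHD2-6 clonotype of 1545 reads and an IGHV1-19 IGHD1-1 clonotype of 1614 reads. Of the 10 largest clonotypes of a library, 2 to 5 were found in the clone list of the repeat in mice 1418, 1423 and 1536.

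The IGHV1-26 IGHD2-4 clonotype of mouse 1418 held 7.75% and 11.4% of reads, and its IGHV1-52 IGHD2-4 clonotype 3% and 8.72%. In mouse 1423 the IGHV1-61 IGHD1-1 clonotype held 15.1% and 31.0%, and the IGHV1-64 IGHD2-4 clonotype 2.5% and 7.10%. In mouse 1536 the IGHV1-72 IGHD5-1 clonotype held 9.31% and 3.28%, and the IGHV1-55 IGHD2-3 clonotype 4.08% and 4.2%. No CDR3 sequence was found in more than 1 mouse, over 74 pairs of libraries from different mice, and none was found in the Vh7183 or Vhq52 amplicons.

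Many clonotypes were near copies of others in the same library. Clonotypes of the same V and J gene and equal CDR3 length were linked where at most 10% of their bases differed, and links were chained, so members of a group can lie farther apart than 10%. So grouped, 210 of the 602 clonotypes fell into 73 groups of 2 or more, 155 of them in WT and 55 in KO libraries. Per mouse, related clonotypes made up 52.4%, 17.4%, 0% and 21.1% in WT mice 1418, 1432, 1485 and 1536. They made up 21.4%, 48.9%, 53.1%, 0% and 60% in KO mice 1421, 1423, 1464, 1500 and 1534, so the groups overlapped. Collapsing each group to its largest member left 376 WT and 89 KO clonotypes.

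The family around the largest clonotype of KO mouse 1464, an IGHV1-55 IGHD2-3 IGHJ4 join, is shown because its leading member differs from germline IGHJ4 where 3 of the 4 minor members do not. Capitals mark bases that differ from the member with 2749 reads.
2749 reads: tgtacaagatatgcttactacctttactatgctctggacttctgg
90 reads: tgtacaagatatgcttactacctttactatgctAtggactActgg
19 reads: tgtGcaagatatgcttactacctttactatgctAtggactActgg
7 reads: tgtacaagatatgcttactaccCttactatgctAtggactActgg
6 reads: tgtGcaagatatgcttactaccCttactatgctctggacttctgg

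That member carried 2 substitutions in the authors' alignment to IGHJ4, as did the version with 6 reads, and the versions with 90, 19 and 7 reads carried none. In KO mouse 1423 the largest family, 8 IGHV1-81 joins of 36 bases, had no single dominant member, and capitals mark the differences from the one with 145 reads in batch 186823a.
145 reads: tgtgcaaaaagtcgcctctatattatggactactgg
61 reads: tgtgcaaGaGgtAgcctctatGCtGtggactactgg
52 reads: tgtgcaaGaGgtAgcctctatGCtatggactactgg
34 reads: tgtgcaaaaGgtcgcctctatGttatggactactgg
8 reads: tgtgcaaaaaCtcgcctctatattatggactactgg
5 reads: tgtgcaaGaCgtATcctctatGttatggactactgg
3 reads: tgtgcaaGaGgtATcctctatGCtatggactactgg
2 reads: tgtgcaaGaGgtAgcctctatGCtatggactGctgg

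Of these 8, 4 carried a substitution in IGHJ4. A family of 8 with the same V gene and length appeared in the mouse's other library, with 489 reads in all against 310. Of the 11 clonotypes shared by both libraries, 7 were IGHV1-81 joins. Over all libraries 116 of 602 clonotypes had at least 1 substitution against their J gene. The share per mouse was 24.0%, 34.8%, 0% and 12.2% in WT mice 1418, 1432, 1485 and 1536, and 17.1%, 24.7%, 31.3%, 0% and 0% in KO mice 1421, 1423, 1464, 1500 and 1534. Weighted by reads it was highest in mouse 1464, at 35.7%. Their source was not tested.

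A smaller class joined the start of a clonotype to the end of another. A clonotype was counted when its start, reaching past V, matched a larger clonotype of the same library and its end, reaching into the bases before J, matched a different larger one, with at least 9 bases common to both parents at the join. There were 23, 15 in WT and 8 in KO libraries, in 6 libraries, and all 15 of the WT ones were from mouse 1418. They were rare, with at most 13 reads each and 108 in all. The shared stretch was 9 to 16 bases long, and 15 of the 23 carried IGHD2-4, which was called in 111 of all 535 joins with a D. Most of those with IGHD2-4 were from mouse 1418, where the same few parents recurred, so this count says little about IGHD2-4 itself. In 12 of the 23 the reverse combination of the same parents was also present, and 3 such sequences appeared in both libraries of a mouse. The pair from WT mouse 1418, batch 186823a, is shown with capitals for the bases common to the parents.
parent, 394 reads: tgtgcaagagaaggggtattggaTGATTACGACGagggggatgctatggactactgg
parent, 537 reads: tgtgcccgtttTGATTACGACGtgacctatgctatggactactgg
joined, 13 reads: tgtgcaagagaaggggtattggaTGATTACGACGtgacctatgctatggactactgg
joined, 7 reads: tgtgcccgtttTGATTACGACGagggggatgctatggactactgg

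KO mouse 1423 gave the same arrangement at IGHD1-1 in batch 187183a.
parent, 2873 reads: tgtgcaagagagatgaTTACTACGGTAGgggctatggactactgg
parent, 1625 reads: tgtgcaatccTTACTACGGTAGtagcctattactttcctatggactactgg
joined, 7 reads: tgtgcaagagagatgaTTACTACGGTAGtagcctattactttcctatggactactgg
joined, 4 reads: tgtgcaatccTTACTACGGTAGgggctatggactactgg

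IGHV1 genes were then compared by how often they joined. The name number of IGHV1 genes rises with distance from D: in the RefSeq gene table, each of the 85 steps to the next higher number leads farther away. The mean number was 46.0, 53.1, 59.9 and 49.4 in WT mice 1418, 1432, 1485 and 1536. It was 52.1, 64.2, 52.6, 34.6 and 58.4 in KO mice 1421, 1423, 1464, 1500 and 1534, with 1 KO mouse above and 1 below all WT mice and the other 3 inside the WT range. The means of 52.1 ± 5.93 in WT and 52.4 ± 11.1 in KO mice lay 0.29 apart (95% interval -14.8 to 13.8, exact p = 0.976).

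The most used genes were IGHV1-26 (87 clonotypes), IGHV1-55 (67) and IGHV1-72 (60), of which 61, 52 and 45 were left after related clonotypes were collapsed. IGHV1-26 was present in all 4 WT mice at 13.7% to 22.7% of clonotypes and in 3 of 5 KO mice at up to 20%, with means of 17.0% ± 4.11 and 6.80% ± 8.34. The top WT value was that of mouse 1418, whose clonotypes joined from parts of others, described above, were mostly IGHV1-26. IGHV1-55 ranged from 0% to 21.7% in WT and from 0% to 53.1% in KO mice, the top value being mouse 1464. IGHV1-72 ranged from 4.35% to 42.9% in WT and from 0% to 26.4% in KO mice. All these ranges overlapped, and single V genes were not tested.

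Of the remaining leading genes, IGHV1-18 and IGHV1-19 had 37 clonotypes each, IGHV1-53 and IGHV1-81 36 each, IGHV1-74 30, IGHV1-39 29, IGHV1-75 27, and IGHV1-22 and IGHV1-69 25 each. Of the 36 IGHV1-81 clonotypes 22 were from KO libraries, but they made up 30.2% of clonotypes in mouse 1423, 6.25% in 1464 and 0% in the other 3 KO mice, and only 11 of the 36 were left after related clonotypes were collapsed. IGHV1-75 had 27 clonotypes in 2 WT mice (5.67% of the WT clonotypes) and none among the 126 KO clonotypes, which allows up to 2.38%. This limit covers counting error and not the spread between mice, and it counts clonotypes shared by repeat libraries in each. The V genes came from the authors' best hits, of which 16 were tied between several genes.

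D was called in 535 of 602 joins. DSP2 genes were the largest class, led by IGHD2-4 (111 clonotypes), then IGHD2-6 (58), IGHD2-3 (44), IGHD2-7 (43) and IGHD2-8 (28). IGHD1-1, the DFL16 gene far from JH, was the most frequent single D (130). IGHD3-2 of the DST4 family had 41 and IGHD4-1, the DQ52 gene beside JH, had 32. IGHD5-7 (19) and IGHD5-4 (13) rested on little sequence, since 12 and 11 of their hits covered fewer than 5 germline bases.

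The DFL16 share of D was 13.8%, 4.76%, 66.7% and 36.0% in WT mice 1418, 1432, 1485 and 1536. It was 16.7%, 16.1%, 30%, 25% and 100% in KO mice 1421, 1423, 1464, 1500 and 1534. The highest mouse of each group had few clonotypes, 6 D joins in 1485 and 4 in 1534. The means of 30.3% ± 27.6 and 37.5% ± 35.4 differed by 7.23 points (95% interval -41.1 to 59.4, exact p = 0.738). DSP2 made up 48.0% ± 23.4 in WT and 39.0% ± 22.8 in KO mice, and DQ52 8.77% ± 5.85 and 13.5% ± 15.8. The mean IGHV1 number beside DFL16 was 44.1 ± 12.8 in WT and 42.3 ± 18.0 in KO mice, and beside DSP2 54.7 ± 11.99 and 49.7 ± 9.12. Beside DST4 it was 59.7 ± 8.13 and 65.7 ± 11.0, and beside DQ52 49.2 ± 16.1 and 49.8 ± 21.4. Several mice gave few joins to these means, and a link between distal D and distal V was not tested.

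Joins to IGHJ4 made up most clonotypes, and the part of the JH4 primer and of the 500 bp fragment in this share was not tested. There were 545 with IGHJ4, 37 with IGHJ3, 17 with IGHJ2 and 3 with IGHJ1. The pooled D-J pairs leaned to upstream JH in KO libraries: of DSP2 joins, 216 of 229 in WT and 39 of 55 in KO went to IGHJ4, and of DFL16 joins 103 of 106 and 19 of 24. IGHJ3 took 11 of 229 and 11 of 55 DSP2 joins, and 3 of 106 and 4 of 24 DFL16 joins.

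Over mice, all joins leaned the same way: IGHJ4 averaged 78.5% in WT and 66.8% in KO mice, and IGHJ3 14.3% and 22.9%. IGHJ2 averaged 5.97% and 10.04%, and IGHJ1 went the other way, at 1.25% and 0.278%. The IGHJ4 share ran from 57.1% to 99.5% in WT libraries and from 40% to 87.1% in KO libraries. These shares of all joins were not tested. The lean was tested for DSP2 joins only, and there it did not hold beyond the spread. The IGHJ4 share of DSP2 joins was 93.2%, 78.6%, 0% and 99.3% in WT mice 1418, 1432, 1485 and 1536, and 83.3%, 68.9%, 82.4% and 50% in KO mice 1421, 1423, 1464 and 1500. Mouse 1485 had a single DSP2 join and mouse 1534 none. KO minus WT came to 3.37 points, with an interval from -49.3 to 83.2 (exact p = 0.943), and to -19.2 points without mouse 1485 (exact p = 0.171). The pooled counts rest on WT mice 1418 and 1536, which gave 446 of the 476 WT clonotypes.

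D reading frames were placed where at least 5 germline bases of a DFL16 or DSP2 gene were read, which gave 399 joins. The tyrosine-rich frame dominated. For DSP2 it held 191 of 220 placed joins in WT (86.8%, Wilson interval 81.7% to 90.7%) and 51 of 53 in KO (96.2%, 87.2% to 99%). For DFL16 it held 74 of 102 in WT (72.5%, 63.2% to 80.3%) and 14 of 24 in KO (58.3%, 38.8% to 75.5%). These intervals treat clonotypes as independent, also those found in both libraries of a mouse, and leave out the spread between mice.

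The remaining joins of the 2 families used different frames. The frame from the first base held 22 of 102 WT and 9 of 24 KO joins of DFL16, but 2 of 220 and 0 of 53 of DSP2. The frame from the second base held 27 of 220 WT and 2 of 53 KO joins of DSP2, and 6 of 102 and 1 of 24 of DFL16. Within DSP2 these were not spread evenly over the genes. IGHD2-7, whose second-base frame has no stop codon, used it in 17 of 41 WT joins and 0 of 2 KO joins, in 3 mice, and these 17 joins formed 12 related groups. IGHD2-3 used it in 8 of 32 WT and 2 of 10 KO joins, all 10 with at least 5 bases trimmed from the 5' end of D. That trimming follows from the choice of productive joins, since with less of it the stop codon of IGHD2-3 would remain. IGHD2-4 and IGHD2-6 used the second-base frame in 1 join each and IGHD2-8 in none. Joins that kept a stop codon are missing from all these frame shares.

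**Figure D3:**
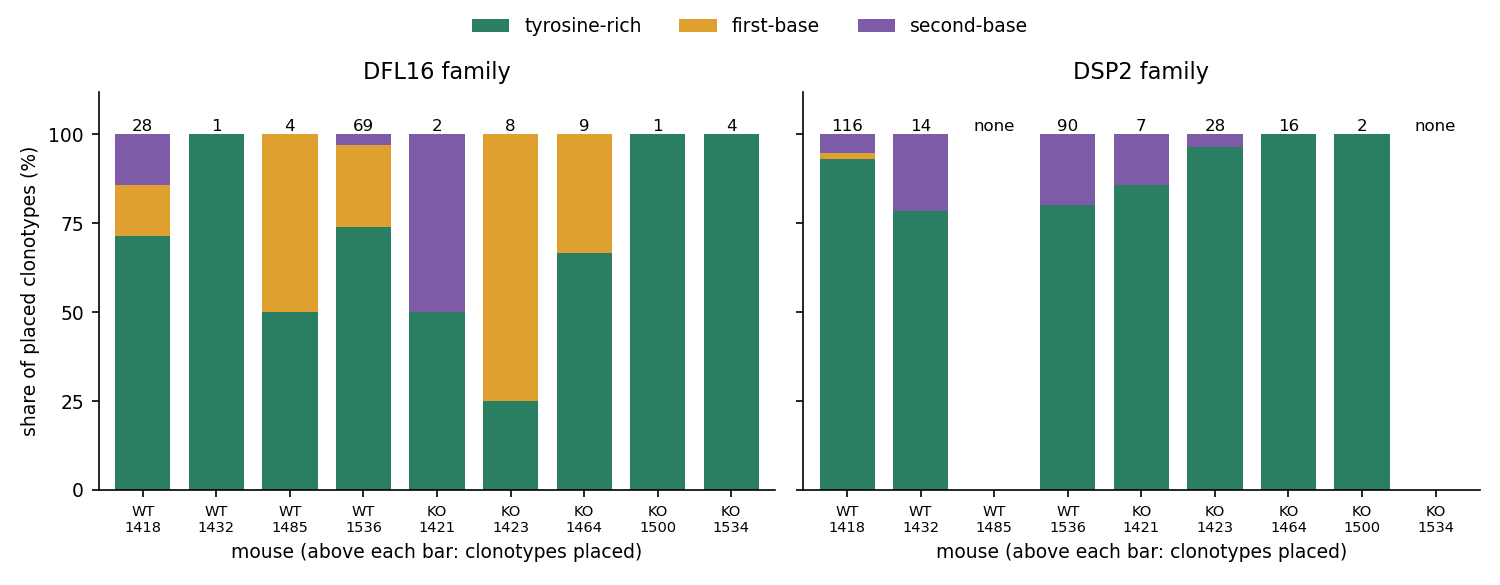
Share of placed clonotypes (y axis, %) in each reading frame of DFL16 (left) and DSP2 (right) by mouse, with the number placed above each bar; the frames start at the third (tyrosine-rich), first or second germline base. The first-base frame fills part of the DFL16 bars of mice 1418, 1485, 1536, 1423 and 1464, and in DSP2 it appears only in mouse 1418, while mice 1485 and 1534 had no placed DSP2 join.

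Per mouse, the tyrosine-rich share over both families was 89.2%, 80%, 50% and 75.5% in WT mice 1418, 1432, 1485 and 1536. In KO mice 1421, 1423, 1464, 1500 and 1534 it was 75%, 77.6%, 88.0%, 100% and 100%. The means of 73.7% ± 16.8 and 88.1% ± 11.9 differed by 14.4 points (interval -8.27 to 38.9, exact p = 0.183, adjusted p = 0.533). The lowest WT value rested on 4 joins and the KO values of 100% on 3 and 4. The sign depended on the batch, with 28.6 points within 185891a and -20.1 points within 187183a. Weighted by reads the difference was 2.17 points, and with libraries of at least 20 clonotypes 1.22 points.

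Junctions carried more inserted bases on the V side of D than on the J side. Inserted bases are those left between segments, and palindromic bases read on from a segment end count with that segment. V-D junctions held a mean of 5.45, 5, 4.5 and 4.45 inserted bases in WT mice 1418, 1432, 1485 and 1536. In KO mice 1421, 1423, 1464, 1500 and 1534 they held 2.48, 3.22, 6.20, 6.5 and 4.75. The WT mice lay close together and the KO mice lay on both sides of them, with 2 below and 2 above all WT mice. The means of 4.85 ± 0.472 and 4.63 ± 1.77 differed by -0.219 bases (95% interval -2.51 to 2.05, exact p = 0.802).

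D-J junctions held 3.28, 3.86, 2.5 and 3.49 bases in the same WT mice and 1.35, 2.13, 3.67, 2.75 and 0.75 in the KO mice. Of the 5 KO mice, 3 lay below all WT mice. The means of 3.28 ± 0.573 and 2.13 ± 1.15 differed by -1.15 bases (95% interval -2.74 to 0.341, exact p = 0.127, adjusted p = 0.533), and by -1.84 with clonotypes weighted by reads (exact p = 0.0397 before adjustment). With IGHJ4 joins only it was -0.654 (exact p = 0.460), and with libraries of at least 20 clonotypes -0.646 (exact p = 0.5). D-J junctions without an inserted base made up 23.3% ± 18.0 in WT and 37.5% ± 25.4 in KO mice, against 8.90% ± 8.10 and 9.62% ± 9.996 of V-D junctions. The V-D mean exceeded the D-J mean in 9 of 9 mice, by 0.958 to 4 bases.

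**Figure D4:**
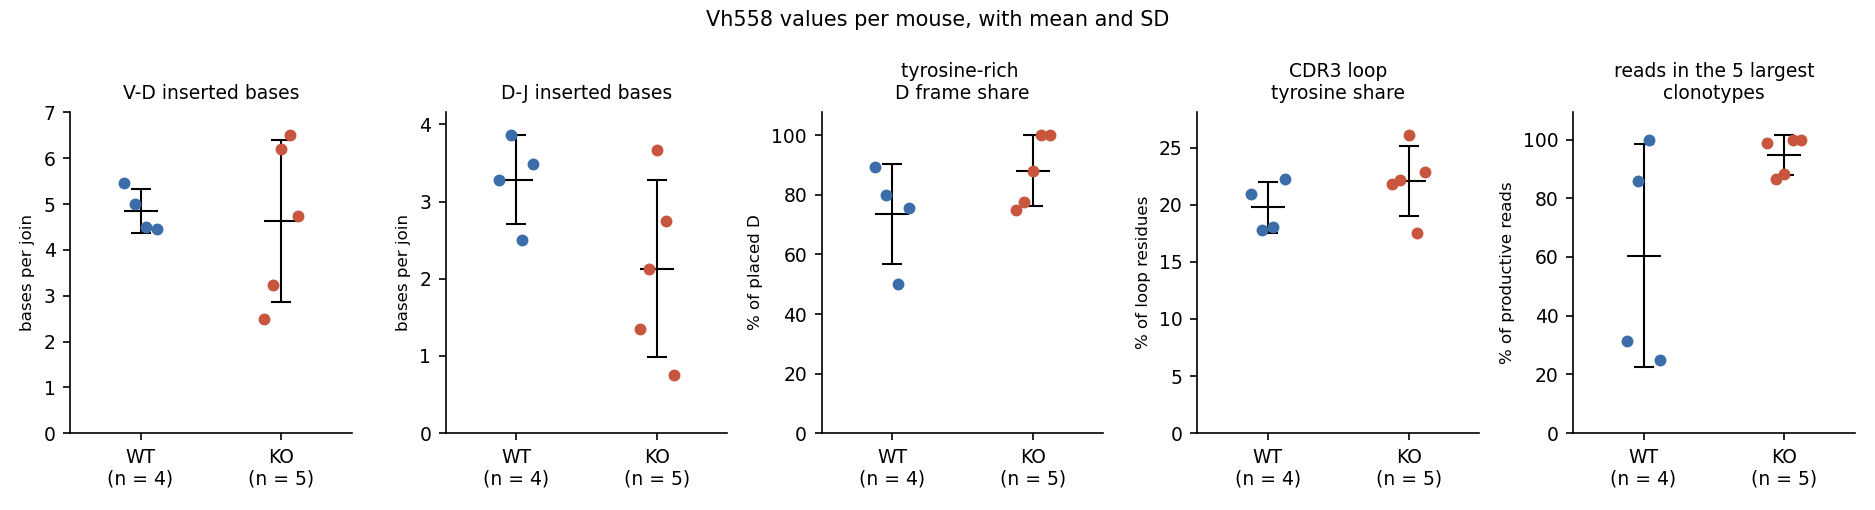
Value of each mouse (points, WT blue, KO red) with the group mean and SD (black) for inserted bases at V-D and D-J, tyrosine-rich frame share, CDR3 loop tyrosine share and reads in the 5 largest clonotypes. The KO mice spread more widely than the WT mice at V-D, from 2.48 to 6.5 bases, and sat from 86.6% to 100% in the last panel.

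The ends of the segments were trimmed unequally. V ends kept all their bases in 74.1% ± 8.58 of WT and 72.9% ± 17.4 of KO clonotypes, and 23.3% ± 6.99 and 19.1% ± 15.5 carried palindromic bases read on from the V end. J ends were intact in 36.8% ± 24.1 and 21.0% ± 8.67. D lost more bases on its 5' side than on its 3' side in 9 of 9 mice, by a mean of 4.62 ± 0.620 against 2.77 ± 0.504 bases (SD, n = 9). In WT and KO mice the 5' loss was 4.55 ± 0.621 and 4.67 ± 0.686, and the 3' loss 2.60 ± 0.473 and 2.91 ± 0.538. D kept 11.2 germline bases in both groups (SD 1.23 and 2.496), where at least 5 were read.

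The D alignment, flanking palindromic bases included, covered 11.0 ± 0.948 bases in WT and 11.1 ± 2.45 in KO mice (difference 0.167, 95% interval -2.74 to 3.35, exact p = 0.913). On average, inserted bases were rich in G and C, the known preference of TdT, whose part here was not tested. The shares were 66.9% ± 3.99 at V-D and 69.4% ± 5.20 at D-J in WT mice, and 79.1% ± 13.3 and 62.6% ± 13.2 in KO mice. Single mice ran from 45.5% at D-J in KO mouse 1500 to 100% at V-D in KO mouse 1534, each with 4 D joins. Joins with no inserted base at either junction were rare, at 1.67% ± 2.12 and 3.77% ± 4.42.

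The amino acid makeup of the loop, taken between the conserved cysteine and tryptophan, was led by tyrosine, alanine and aspartate. This stretch includes germline bases of V and J, and 545 of the 602 joins used IGHJ4, whose germline end codes for all of these residues. The germline part of their shares was not separated. Tyrosine made up 21.0%, 17.7%, 18.1% and 22.3% of loop residues in WT mice 1418, 1432, 1485 and 1536. It made up 21.8%, 22.1%, 26.1%, 17.5% and 22.9% in KO mice 1421, 1423, 1464, 1500 and 1534, which overlapped with WT. The means of 19.8% ± 2.22 and 22.1% ± 3.05 differed by 2.33 points (interval -2.02 to 6.57, exact p = 0.190). Alanine was at 16.3% ± 3.30 and 15.95% ± 0.825, and aspartate at 12.01% ± 2.21 and 11.1% ± 1.55.

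Glycine differed by 1.32 points (8.37% ± 2.59 and 9.70% ± 4.14, 95% interval -3.73 to 7.87, exact p = 0.667). Mean Kyte-Doolittle hydropathy was -0.70 ± 0.121 in WT and -0.67 ± 0.139 in KO mice, a difference of 0.033 (95% interval -0.174 to 0.248, exact p = 0.730). Net charge, lysine and arginine minus aspartate and glutamate, was -0.459 ± 0.746 and -0.453 ± 0.418 per loop (difference 0.00647, 95% interval -0.945 to 0.848, exact p = 0.992). Arginine, which the germline V end supplies, was at 9.75% ± 1.21 and 9.11% ± 0.782, and tryptophan at 2.36% ± 1.29 and 1.11% ± 0.634.

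The D frame codes part of the loop, and the tyrosine-rich frame was defined by its tyrosine codons. The split of loops by frame is therefore a description, and more tyrosine in that class follows from the definition. Over mice, loops with a D in the tyrosine-rich frame had 25.7% ± 3.68 tyrosine (n = 9) and a mean hydropathy of -0.92 ± 0.133. Loops with D in another frame had 15.1% ± 4.86 (n = 7) and -0.07 ± 0.242. Loops with no D called had 17.5% ± 7.15 (n = 9) and -0.54 ± 0.246.

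Vh558 was compared with the other amplicons of the same mice, Vh7183 and Vhq52, whose primers name proximal VH families. These have 1 library per mouse in a batch of their own, so amplicon and batch cannot be told apart. The tyrosine-rich D frame was more frequent in Vh558 than in Vhq52 in 7 of 7 mice. The Vh558 and Vhq52 shares were 89.2% and 10% in WT mouse 1418, 80% and 66.7% in 1432, 50% and 37.5% in 1485, and 75.5% and 66.7% in 1536. They were 75% and 66.7% in KO mouse 1421, 88.0% and 42.9% in 1464, and 100% and 50% in 1500. The mean difference was 31.1 points ± 27.5 (SD), with p = 0.0156 in a two-sided exact sign-flip test, the smallest that 7 mice allow, and 0.156 after adjustment over the 10 amplicon tests. The Vhq52 shares rested on 3 to 18 placed joins per mouse. Against Vh7183 the difference was 3.79 points, with 4 of 8 mice higher in Vh558 (exact p = 0.656).

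**Figure D5:**
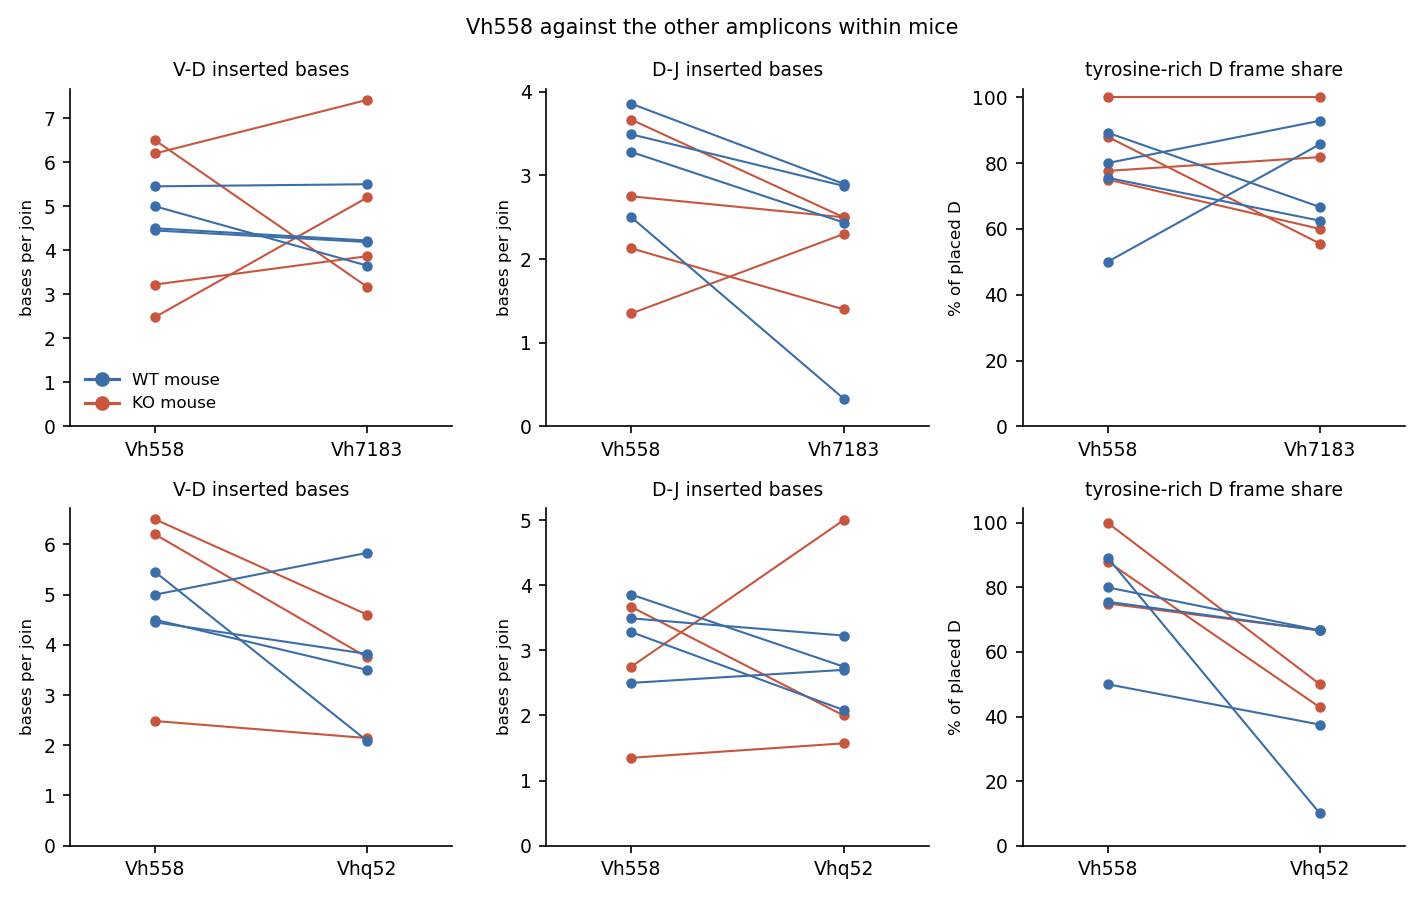
Values of each mouse (lines, WT blue, KO red) in Vh558 and in Vh7183 (top) or Vhq52 (bottom) for inserted bases at V-D and D-J (bases per join) and the tyrosine-rich D frame share (%). The frame share was lower in Vhq52 than in Vh558 in 7 of 7 mice, and D-J insertion was lower in Vh7183 in 7 of 8 mice.

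No difference in inserted bases between amplicons had an exact p under 0.05. Against Vh7183, D-J junctions of Vh558 held 2.88 ± 0.860 against 2.16 ± 0.870 bases (higher in 7 of 8 mice, exact p = 0.0547, adjusted p = 0.156), and V-D junctions 4.73 ± 1.38 against 4.65 ± 1.36 (exact p = 0.898). Against Vhq52, V-D junctions held 4.94 ± 1.34 against 3.68 ± 1.32 (higher in 6 of 7 mice, exact p = 0.0625), and D-J junctions 2.99 ± 0.869 against 2.76 ± 1.13 (exact p = 0.641). Loop tyrosine was 20.6% ± 3.12 in Vh558 and 17.1% ± 3.60 in Vhq52 (higher in 5 of 7 mice, exact p = 0.0625), and 20.8% ± 2.94 against 21.3% ± 2.37 in Vh7183 (exact p = 0.742). Hydropathy differed by -0.126 from Vhq52 (exact p = 0.203) and by 0.127 from Vh7183 (exact p = 0.195).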

How the data were processed

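The authors deposited raw, unscaled read counts for every clonotype, beside the sequenced reads per library. Other deposited columns, per the file headers, are positions and trimmed lengths in bases. The layout follows MiXCR, named in the series title, and no source used here states a version, settings or gene library. The table holds 930 productive clonotypes of at least 2 reads, of which 22 were not used: 19 from a library that matched no sample, and 3 from the second run of mouse 1534, whose batch in the table goes against its label. Junctions were taken from the position columns, because the deposited D strings stand 1 base off those positions in 814 of 814 entries. MiXCR's D reference carries palindromic flanks: 56 of 535 D hits covered fewer than 5 germline bases, were placed in no frame, and 243 ran past the germline ends.

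Each value was computed per clonotype without weights, averaged per library and then per mouse. Genotypes were compared by two-sided exact permutation tests over mice, with 95% intervals by inversion, and amplicons by exact sign-flip tests over mice, since the same mouse gave both. Benjamini-Hochberg adjustment covered the 14 and the 10 tests separately. Tests and frame placement were tested on simulated data. Python 3 with numpy, scipy and pandas was used. Clonotypes, lists and tests were chosen with earlier results of these data known. Named were the 12 V genes with the most clonotypes, D families and D genes with at least 10, all JH genes, clonotypes over 25% of a library, the 2 largest shared by repeat libraries, and CDR3 sequences found in several mice, of which there were 0. The related and spliced clonotypes, and the clonotypes shown as missing from a repeat library, were chosen after their values were seen.

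Alternatives were leaving out each mouse, each batch alone, merged repeat libraries, weighting by reads, a minimum of 10 reads, IGHJ4 joins only, the 14 clone lists of single samples (here with the second run of mouse 1534), and, for both read concentration values, thinning to 612 reads. The clone lists start at 1 read, and those of the 13 libraries held 454 of the 602 clonotypes and 42640 reads against 73148 in the table. PCR reads without molecular identifiers are not molecules, so intervals on shares cover counting error only.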

Additional observations from a re-analysis of the deposited data

Results flagged for a closer look

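In KO mouse 1534 the DFL16 share of D was 100%, against 16.1% to 30% in the other 4 KO mice, a gap that stood out from the group's range. It rested on 4 D joins. The same mouse was the lowest KO mouse for the log2 number of clonotypes that held 50% of the reads, at 0, meaning 1 clonotype, against 1 to 1.29 in the others. Over the 28 groups examined, chance alone flags about 1 in 20.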

How the results depend on the processing

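Directions below are KO minus WT, and the threshold is an unadjusted exact p of 0.05. Collapsing related clonotypes and keeping libraries of at least 20 clonotypes were chosen after seeing the data. Of 266 alternative values, 211 kept their direction and their side of the threshold and 50 reversed, none of the reversed with a p under 0.05. The cause of each change below was not tested. Past the threshold came D-J inserted bases weighted by reads (-1.84, exact p = 0.0397) and reads in the 5 largest clonotypes with related clonotypes collapsed (30.9 points, exact p = 0.0476), beside both read concentration values without WT mouse 1485. Within batch 185891a the signs turned for V-D inserted bases (1.09), IGHV1 number (-5.81), hydropathy (-0.102) and charge (-0.248), and within 187183a for the tyrosine-rich frame (-20.1), the IGHJ4 share of DSP2 joins (-7.55), loop tyrosine (-0.296) and glycine (-1.03). Weighted by reads they turned for V-D inserted bases (0.632), tyrosine (-0.343) and glycine (-2.67). With at least 10 reads they turned for V-D inserted bases (0.0489), D bases kept (-0.00713), the IGHJ4 share of DSP2 joins (-8.77) and glycine (-0.234). With IGHJ4 joins only they turned for V-D inserted bases (0.406) and glycine (-0.768). With related clonotypes collapsed they turned for V-D inserted bases (0.136), IGHV1 number (-1.13) and charge (-0.134). With repeat libraries merged they turned for IGHV1 number (-0.812) and charge (-0.0109). With libraries of at least 20 clonotypes they turned for the IGHJ4 share of DSP2 joins (-14.7), glycine (-1.26) and clonotypes under 10 reads (0.55). In the single clone lists they turned for hydropathy (-0.0354) and charge (-0.0288). Thinning every library to 612 reads, run only for the 5 largest clonotypes and the log2 number holding 50% of reads, gave 34.0 points and -1.38.

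Leaving out a mouse at a time gave -0.687 to 0.318 for V-D inserted bases, -0.798 to 0.890 for D bases kept, -2.67 to 4.74 for IGHV1 number, -8.38 to 19.3 points for the DFL16 share, -19.2 to 13.9 for the IGHJ4 share of DSP2 joins, -0.419 to 2.43 for glycine, -0.0157 to 0.0856 for hydropathy and -0.223 to 0.350 for charge. It gave -2.18 to -0.84 for the log2 number of clonotypes holding 50% of reads and 22.5 to 47.5 points for the 5 largest.

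The amplicon results were paired by mouse. Without that block, the test of Vh558 minus Vhq52 for the tyrosine-rich frame had the same 31.1 points with exact p = 0.00816, and no other amplicon result crossed the threshold. In WT mice only, that difference was 28.5 points (exact p = 0.125, the smallest 4 mice allow), and the difference from Vh7183 was -3.24. Weighted by reads, V-D inserted bases of Vh558 minus Vh7183 were -0.590. The small libraries, of 5 to 10 clonotypes, limit every mean over clonotypes.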
